A study of Mus musculus with 6 samples.

Results

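The genes described here encode the machinery that mends mispaired, chemically altered and bulky lesions in DNA. They comprise 36 genes chosen by symbol, of the 22558 gene names in each deposited table: 6 mismatch repair genes, 9 DNA glycosylases that open base excision repair, 8 genes for the later steps of base excision repair, 12 nucleotide excision repair genes, and Mgmt, which reverses damage directly. Messenger RNA was sequenced from 6 mouse pluripotent cell cultures at passage 25, with 1 library each, in a series whose title concerns H2A.X in lineage commitment and genomic stability. H2A.X is a variant of histone H2A that becomes phosphorylated next to broken DNA ends. The embryonic stem cells (ESC), of 129Sv background, were an H2A.X knockout made with Cre recombinase and Flox/Flox cells, whose H2A.X gene carries loxP sites but is intact. The induced pluripotent stem cells (iPSC), of mixed 129Sv/C57 background, were a 4N- and a 4N+ line from peritoneal fibroblasts (PF) and a 4N- and a 4N+ line from tail tip fibroblasts (TTF). Their source names begin with H2A.X but state no genotype, and 4N is taken here, which no label states, to report tetraploid complementation, in which a host blastocyst leaves the embryo proper to the injected line. All cultures grew on feeder cells with LIF and were passed onto gelatin to remove the feeders before RNA was taken. Each condition within a table was 1 line and 1 library, so no comparison between 2 libraries has a replicate check, and none carries a p-value of its own here.

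In mismatch repair, MutS dimers recognise a mispaired base left by replication, MutL dimers nick the new strand, and an exonuclease removes the stretch around the error. In base excision repair, a glycosylase releases a damaged base, an endonuclease cuts the bare site, and a polymerase and a ligase fill and seal the gap. In nucleotide excision repair, damage sensors and a helicase complex open the helix around a bulky lesion, and a pair of endonucleases cuts the damaged strand on each side. Pluripotent cells cycle fast, and several of these proteins also travel with the replication fork.

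The values were read as FPKM, a level per transcript length and per library size. Effective depth, recovered from values worth 1 fragment, lay between 39059600 fragments in the knockout ESC and 61181100 in the TTF 4N- iPSC. At 5 FPKM on a transcript of 2000 bp, the upper 95% Poisson limit lay 8.25% to 10.4% above the value, counting error only. H2afx, the deleted gene, had 6.18 FPKM in knockout ESC, against 34.9 FPKM in Flox/Flox ESC, or 17.7% of it, which was the direction of the labels. In iPSC, H2afx had 75.2 FPKM in PF 4N- and 69.1 FPKM in PF 4N+, and 65.3 FPKM in TTF 4N- and 70.9 FPKM in TTF 4N+. The 4N- level was thus 109% of the 4N+ level in the PF pair and 92.2% in the TTF pair. All 10 pluripotent markers exceeded 1 FPKM in every library, the check of the labelled cell type. The knockout library stood apart. Its summed level over 9 trophoblast markers was 1138 FPKM, against 48.6 FPKM in Flox/Flox ESC, and over the 10 pluripotent markers 1552 FPKM, against 2995 FPKM. Most of the knockout trophoblast sum came from Krt18 (659 FPKM), Rhox6 (247 FPKM) and Krt8 (188 FPKM). Of 7 trophoblast markers with 1 FPKM or more in either ESC library, 6 were higher in the knockout and 1 lower. Cdx2 and Elf5 lay below 1 FPKM in both ESC libraries. Differences are given on the scale log2(FPKM + 1), which understates the change of low genes, and a gene counted as measured in a table with 1 FPKM or more in either library.

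Nearly the whole repair set was expressed in all 6 cultures. Of the 36 genes, 35 reached 1 FPKM in every library, so none of those passed the filter through 1 group alone. Between 30 and 32 genes reached 5 FPKM. The median gene stood at 10.8 FPKM in knockout ESC and 12.7 FPKM in Flox/Flox ESC, at 11.1 FPKM in PF 4N- and 12.2 FPKM in PF 4N+ iPSC, and at 11.8 FPKM in TTF 4N- and 11.5 FPKM in TTF 4N+ iPSC. Because the tables were presumably scaled separately, levels from different tables are set side by side with that limit.

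Ddb1, the large subunit of the ultraviolet damage sensor and an adaptor of CUL4 ubiquitin ligases, was the highest of the set in every library, between 240 and 300.3 FPKM. Msh6 followed in all libraries except PF 4N+, where Parp1 stood above it. The 6 highest genes were the same in all 6 libraries, namely Ddb1, Msh6, Parp1, Rad23b, Lig1 and Apex1, with their order below Ddb1 differing between libraries. The top 4 genes of a library held 53.7% to 57.4% of the summed FPKM of the set. At the other end, Tdg lay between 0.294 and 0.580 FPKM, and was the lowest gene of the set in every library. Above it, Ercc4 ranged from 1.67 to 3.62 FPKM and Neil1 from 2.25 to 4.01 FPKM. The highest library exceeded the lowest by 1.25-fold for Ercc6 and by 3.15-fold for Apex1, the ends of the range, with a median of 1.77-fold. With 1 library per culture, neighbours in these orders have no spread against which to set their differences.

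**Figure D1:**
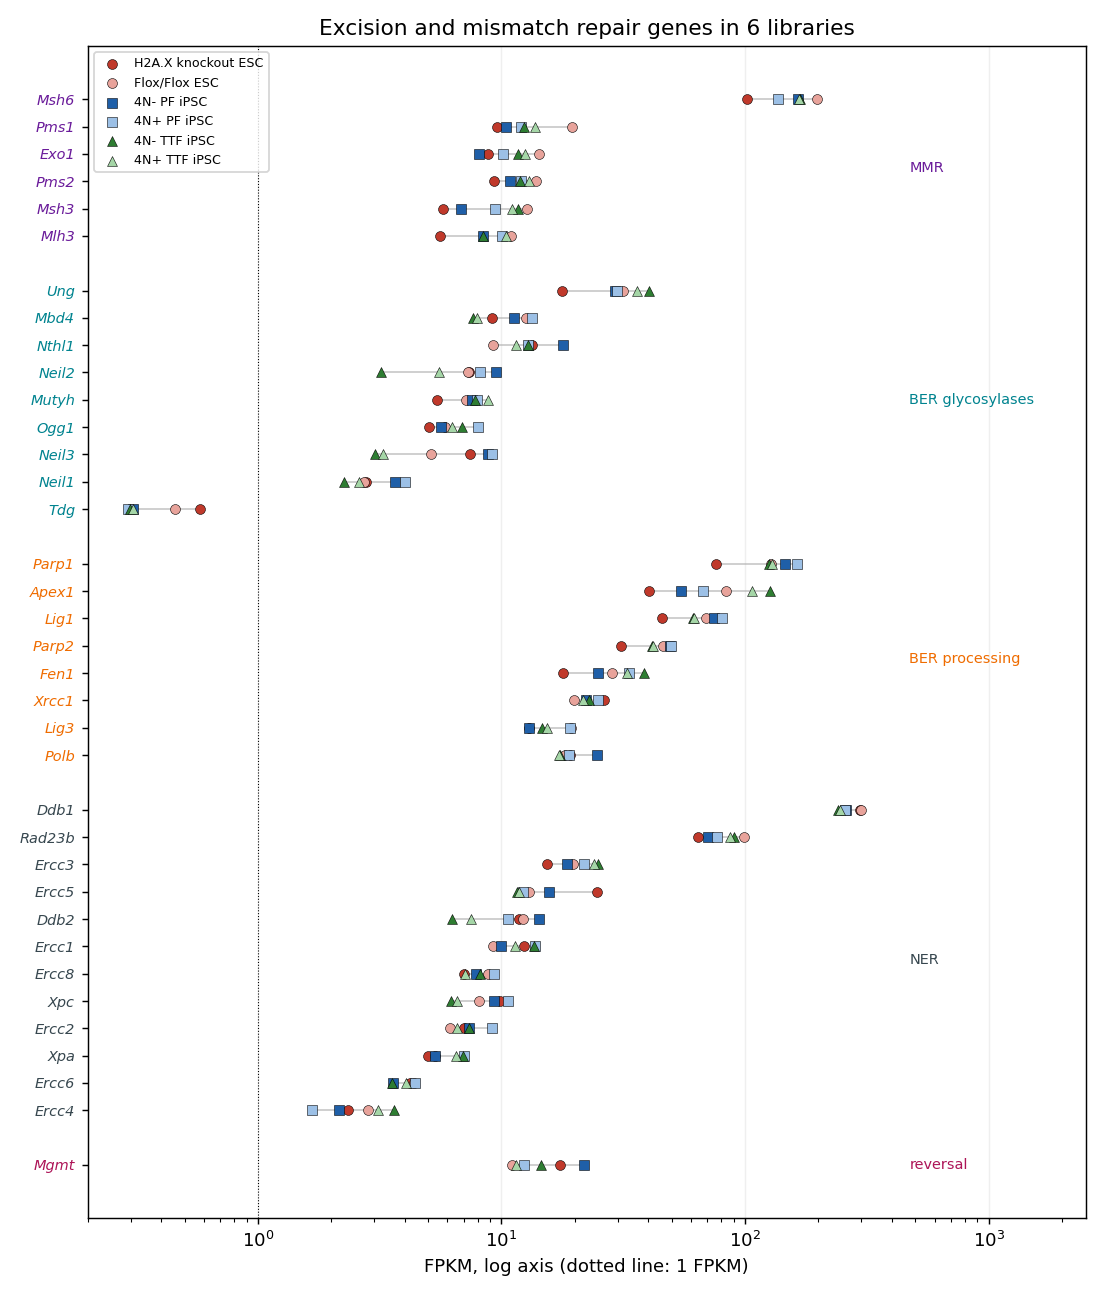
Level of each of the 36 repair genes in the 6 libraries, in FPKM on a log axis, grouped by role (MMR, mismatch repair; BER, base excision repair; NER, nucleotide excision repair), with 1 point per library and no error bars because each condition is 1 library. Ddb1 lies at 240 to 300.3 FPKM in every library, Tdg stays left of the dotted line at 1 FPKM, and the knockout ESC gives the lowest point for 18 genes.

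Tdg, which removes thymine or uracil from G mismatches and acts in active DNA demethylation, is uncertain at this level. Its longest coding transcript in the GENCODE annotation is 3502 bases, and the pseudogene Tdg-ps matches 2968 of them at 98.69% identity. Gm9855 matches 1194 bases at 99.25%, and Gm5597 matches 1193 bases at 99.33%. The counting may have split reads among such copies. Gm9855, named after its values were seen, had 0.807 FPKM in knockout ESC and 1.53 FPKM in Flox/Flox ESC. Tdg itself had 0.580 FPKM in knockout ESC, against 0.455 FPKM in Flox/Flox ESC, both below the 1 FPKM limit, and it enters no count below.

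In the ESC table the question is how far the repair genes differed between H2A.X knockout and Flox/Flox cells. Levels at least 1.5-fold lower in knockout ESC were found for 5 of 6 mismatch repair genes, 4 of 8 genes of the later base excision steps, 1 of 8 measured glycosylases and 1 of 12 nucleotide excision repair genes. Of 35 measured genes, 24 were lower and 11 higher in knockout ESC. Over all 12086 measured genes, 51.7% were lower. A difference of at least 1.5-fold downwards was found for 11 of the 35 genes, against a background of 15.9% of all measured genes, and upwards for 2 of 35, against a background of 17.8%. At least 2-fold, 2 genes were lower, Msh3 and Apex1, against 3.72% of all genes, and 0 were higher, against 7.49%. The median log2 ratio of the repair genes was -0.29, and that of all measured genes was -0.03.

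Scaling matters to these counts. Genes with at least 5 FPKM in both ESC libraries, 6901 in number, had a median log2 ratio of -0.20. Relative to that shift, the median of the repair genes was -0.08, with 18 lower and 17 higher, and that of all measured genes was 0.17. The share of all genes lower relative to the shift was not counted. Then 6 genes were at least 1.5-fold lower, namely Msh3, Msh6, Mlh3, Pms1, Ung and Apex1, against 8.09% of all genes, and 6 were at least 1.5-fold higher, namely Neil3, Nthl1, Xrcc1, Ercc1, Ercc5 and Mgmt, against 26.7%. The share of higher genes among all 2-fold differences of the table was 66.8% as deposited and 87.5% relative to the shift. In the authors' deposited table, 0 of the 36 genes were called, while 210 genes in all were, 1.44% of those tested. The lowest p-value of the set in the authors' deposited table was 0.0864 for Pms1, with q = 0.666. The summed levels of the trophoblast and pluripotent markers given above also differed in this comparison, and their part in it was not tested. In these bulk libraries, fewer cells of a type and less RNA per cell cannot be told apart.

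**Figure D2:**
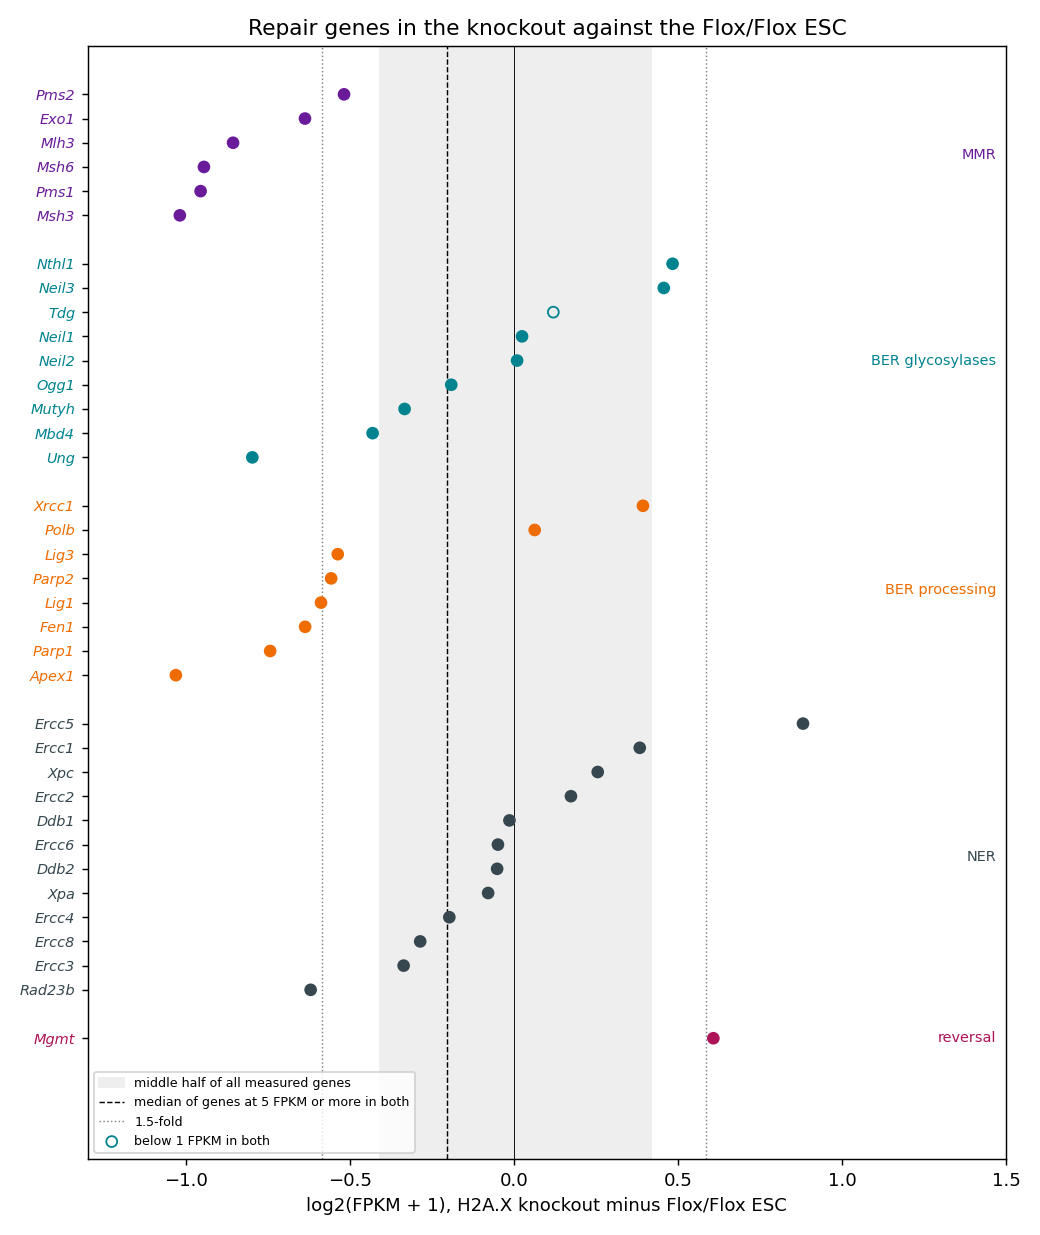
Difference in log2(FPKM + 1), H2A.X knockout minus Flox/Flox ESC, for each of the 36 repair genes, coloured by role and with 1 library behind each side. The grey band is the interquartile range of all measured genes, the dashed line the median of genes with at least 5 FPKM in both libraries (-0.20), and the dotted lines mark 1.5-fold; all 6 mismatch repair genes lie left of 0, with Ercc5 and Mgmt right of the upper 1.5-fold line.

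All 6 mismatch repair genes described here were lower in the knockout ESC, 5 of them by at least 1.5-fold, with a median log2 ratio of -0.90, or -0.70 relative to the shift. Msh3 and Msh6 encode the alternative partners that give a MutS dimer its preference, Msh6 for single mispairs and Msh3 for larger loops. Msh3 (chromosome 13, 92981836 to 93159008 on mm9) had 5.76 FPKM in knockout ESC and 12.7 FPKM in Flox/Flox ESC, 6.84 FPKM in PF 4N- and 9.40 FPKM in PF 4N+, and 11.7 FPKM in TTF 4N- and 11.0 FPKM in TTF 4N+ iPSC. The knockout value was the lowest of the 6 and 45.4% of the Flox/Flox value, a log2 ratio of -1.02. Msh6 (chromosome 17, 88374390 to 88464625 on mm9) had 102 FPKM in knockout ESC and 198 FPKM in Flox/Flox ESC, 165 FPKM in PF 4N- and 137 FPKM in PF 4N+, and 168 FPKM in TTF 4N- and 166 FPKM in TTF 4N+ iPSC. It too was lowest in the knockout, at 51.7% of the Flox/Flox value, a log2 ratio of -0.95. The level of Msh6 was 17.8 times that of Msh3 in knockout ESC and 15.6 times in Flox/Flox ESC, a ratio within a library that no scaling can alter. That ratio was 24.1 in PF 4N- iPSC, against 14.6 in PF 4N+, and 14.4 in TTF 4N- iPSC, against 15.1 in TTF 4N+.

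The promoter window of Msh6, from RefSeq on the plus strand of GRCm38.p6 at chr17:87974800-87975049 and written 5′ to 3′, is shown because Msh6 was the most abundant mismatch repair gene of the set and stood near 50% of the Flox/Flox level in knockout ESC. Capitals mark the GC box, whose letters are GGGCGG, the word known as CCAAT, and the E2F words TTTGGCGC, TTTCCCGC, TTTCGCGC and TTTGCCGC, each searched on both strands.
Msh6: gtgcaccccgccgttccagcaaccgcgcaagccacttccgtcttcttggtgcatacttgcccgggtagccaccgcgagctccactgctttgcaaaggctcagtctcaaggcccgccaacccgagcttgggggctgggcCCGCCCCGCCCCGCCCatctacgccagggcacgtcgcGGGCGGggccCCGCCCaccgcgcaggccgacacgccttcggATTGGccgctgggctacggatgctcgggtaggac
It holds 5 GC boxes, some overlapping, 1 CCAAT word and 0 E2F words. These motifs were chosen with the values known. In windows of 250 bases before the start, a GC box was present in 32.9% of 27025 promoters and in 18 of the 30 repair genes with an entry. An E2F word was present in 1.91% of all promoters and in 2 of the 30, Msh3 and Nthl1, of which Nthl1 was not lower in the knockout ESC. CCAAT was present in 34.5% of all promoters and 17 of the 30, and the E-box CACGTG in 6.05% and 7 of the 30.

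Msh6 shares 1 locus entry in the authors' files with Fbxo11, an F-box gene that, named after its values were seen, had 13.0 FPKM in knockout ESC and 17.0 FPKM in Flox/Flox ESC. In all, 11 of the 36 genes share an entry with a neighbour, the others being Msh3, Tdg, Ogg1, Apex1, Polb, Lig1, Lig3, Ercc1, Ercc2 and Ddb2. Since strand use is not stated, reads of overlapping genes may have been mixed.

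Among the MutL genes, Pms1 (chromosome 1, 53246032 to 53353840 on mm9) had 9.55 FPKM in knockout ESC, against 19.5 FPKM in Flox/Flox ESC, a log2 ratio of -0.96. Mlh3, a MutL partner used in meiosis and mismatch repair (chromosome 12, 86575470 to 86611514 on mm9), had 5.59 FPKM in knockout ESC, against 10.9 FPKM in Flox/Flox ESC, a log2 ratio of -0.86. Both lay near 50% of the Flox/Flox level, at 49.1% for Pms1 and 51.1% for Mlh3. Pms2, the endonuclease subunit of the main MutL dimer, was less far apart at 9.33 FPKM in knockout ESC and 13.8 FPKM in Flox/Flox ESC, 67.6% of it, just outside the 1.5-fold limit. Pms2 was therefore 0.978 times Pms1 in knockout ESC and 0.709 times in Flox/Flox ESC. Exo1, the exonuclease that removes the mispaired strand (chromosome 1, 177810909 to 177841527 on mm9), had 8.83 FPKM in knockout ESC and 14.3 FPKM in Flox/Flox ESC, 8.06 FPKM in PF 4N- and 10.1 FPKM in PF 4N+, and 11.7 FPKM in TTF 4N- and 12.4 FPKM in TTF 4N+ iPSC. Its log2 ratio in ESC was -0.64, and it was the only mismatch repair gene of the 6 whose lowest library was not the knockout but PF 4N-.

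The glycosylases, each of which recognises its own kinds of damaged base, were evenly divided in ESC. Of 8 measured, 4 were lower and 4 higher in the knockout, with a median log2 ratio of -0.09, or 0.11 relative to the shift, and 1 was at least 1.5-fold lower. That gene was Ung, the uracil-DNA glycosylase (chromosome 5, 114580444 to 114589330 on mm9), with 17.7 FPKM in knockout ESC and 31.5 FPKM in Flox/Flox ESC, 29.3 FPKM in PF 4N- and 29.9 FPKM in PF 4N+, and 40.3 FPKM in TTF 4N- and 35.8 FPKM in TTF 4N+ iPSC. The knockout was the lowest library for Ung, at 56.2% of Flox/Flox, a log2 ratio of -0.80. Its promoter window, on the plus strand of GRCm38.p6 at chr5:114130185-114130434, is shown for comparison with that of Msh6 and holds 2 GC boxes, in capitals.
Ung: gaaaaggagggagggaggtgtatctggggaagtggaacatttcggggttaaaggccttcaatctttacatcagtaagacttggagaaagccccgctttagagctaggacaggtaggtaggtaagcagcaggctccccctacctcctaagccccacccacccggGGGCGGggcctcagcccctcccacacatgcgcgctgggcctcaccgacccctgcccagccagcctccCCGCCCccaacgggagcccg
Mbd4, which like Tdg removes thymine from G mismatches at methylated sites, had 9.13 FPKM in knockout ESC and 12.7 FPKM in Flox/Flox ESC, a log2 ratio of -0.43. The gene pair that deals with 8-oxoguanine differed little: Ogg1, which excises it, had 5.03 FPKM in knockout ESC and 5.89 FPKM in Flox/Flox ESC. Mutyh, which removes adenine placed opposite it, had 5.45 FPKM in knockout ESC and 7.13 FPKM in Flox/Flox ESC.

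The glycosylases for oxidised pyrimidines were level or higher in the knockout ESC. Nthl1 (chromosome 17, 24769627 to 24775783 on mm9) had 13.3 FPKM in knockout ESC, against 9.25 FPKM in Flox/Flox ESC, a log2 ratio of 0.48. Neil3, which also acts on single-stranded DNA, had 7.41 FPKM in knockout ESC, against 5.13 FPKM in Flox/Flox ESC, a log2 ratio of 0.46. Both lay under the 1.5-fold limit as deposited and passed it relative to the shift, at 0.69 for Nthl1 and 0.66 for Neil3. Neil1 had 2.78 FPKM in knockout ESC and 2.72 FPKM in Flox/Flox ESC, and Neil2 had 7.34 FPKM in knockout ESC and 7.28 FPKM in Flox/Flox ESC.

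Of the 8 genes for the later steps of base excision repair, 6 were lower in knockout ESC, 4 of them by at least 1.5-fold, with a median log2 ratio of -0.57, or -0.37 relative to the shift. Apex1, the main endonuclease for bare sites in DNA (chromosome 14, 51544624 to 51550524 on mm9), had 40.2 FPKM in knockout ESC and 83.2 FPKM in Flox/Flox ESC, 54.6 FPKM in PF 4N- and 67.0 FPKM in PF 4N+, and 127 FPKM in TTF 4N- and 107 FPKM in TTF 4N+ iPSC. It had the widest range of the whole set, with the knockout lowest and both TTF lines highest. The knockout value was 48.3% of Flox/Flox, a log2 ratio of -1.03 that lay beside the -1.02 of Msh3, and with a pseudocount of 0.1 the ratios were -1.05 for Apex1 and -1.13 for Msh3. Of its 1239 transcript bases, 685 are shared at 100% identity with the overlapping Pip4p1, called Tmem55b in the authors' files, so its level is uncertain. Polb, the gap-filling polymerase that follows Apex1, had 19.2 FPKM in knockout ESC and 18.3 FPKM in Flox/Flox ESC. Apex1 was thus 2.10 times Polb in knockout ESC and 4.54 times in Flox/Flox ESC.

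Parp1, the sensor of strand breaks that builds poly(ADP-ribose) chains (chromosome 1, 182499106 to 182531385 on mm9), had 76.0 FPKM in knockout ESC and 128 FPKM in Flox/Flox ESC, 147 FPKM in PF 4N- and 163 FPKM in PF 4N+, and 126 FPKM in TTF 4N- and 129 FPKM in TTF 4N+ iPSC. The other 5 libraries all lay above 100 FPKM, and the log2 ratio in ESC was -0.74. Parp2, its smaller relative, had 31.0 FPKM in knockout ESC and 46.1 FPKM in Flox/Flox ESC, a log2 ratio of -0.56, just under the 1.5-fold limit. Fen1, the flap endonuclease of long-patch repair and Okazaki fragment maturation (chromosome 19, 10273629 to 10278433 on mm9), had 17.8 FPKM in knockout ESC and 28.3 FPKM in Flox/Flox ESC, a log2 ratio of -0.64. The antisense gene Gm10143 covers 1911 of its 2373 transcript bases, and without strand use reads of that pair cannot be told apart.

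Lig1, the ligase of the replication fork, had 45.6 FPKM in knockout ESC and 69.1 FPKM in Flox/Flox ESC, a log2 ratio of -0.59 that lay just inside the 1.5-fold limit. Lig3, the ligase that also serves mitochondria, had 12.9 FPKM in knockout ESC and 19.2 FPKM in Flox/Flox ESC, a log2 ratio of -0.54 just outside it. The pair kept similar proportions, Lig1 being 3.53 times Lig3 in knockout ESC and 3.60 times in Flox/Flox ESC. Xrcc1, the scaffold that holds Lig3 and Polb at a nick, lay on the other side of 0, with 26.4 FPKM in knockout ESC, the highest of the 6 libraries, and 19.8 FPKM in Flox/Flox ESC. Its log2 ratio was 0.39, or 0.60 relative to the shift.

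The 12 nucleotide excision repair genes had a median log2 ratio of -0.05 in ESC, or 0.15 relative to the shift, with 8 lower and 4 higher. One passed 1.5-fold in each direction. Ercc5, which encodes the XPG endonuclease that cuts on the 3′ side of a lesion (chromosome 1, 44204589 to 44238105 on mm9), had 24.7 FPKM in knockout ESC and 13.0 FPKM in Flox/Flox ESC, 15.6 FPKM in PF 4N- and 12.3 FPKM in PF 4N+, and 11.6 FPKM in TTF 4N- and 11.8 FPKM in TTF 4N+ iPSC. The other 5 libraries lay between 11.6 and 15.6 FPKM, and the knockout alone stood above them, at 191% of Flox/Flox and a log2 ratio of 0.88. Rad23b, which stabilises the XPC damage sensor (chromosome 4, 55362914 to 55405109 on mm9), had 63.8 FPKM in knockout ESC and 98.7 FPKM in Flox/Flox ESC, a log2 ratio of -0.62, or -0.42 relative to the shift. Its partner Xpc had 9.82 FPKM in knockout ESC and 8.07 FPKM in Flox/Flox ESC. Rad23b was therefore 6.50 times Xpc in knockout ESC and 12.2 times in Flox/Flox ESC.

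The promoter window of Ercc5, on the plus strand of GRCm38.p6 at chr1:44147494-44147743, is shown because it belongs to the repair gene with the highest ratio in the knockout ESC. It holds 1 CCAAT word, in capitals, and 0 GC boxes.
Ercc5: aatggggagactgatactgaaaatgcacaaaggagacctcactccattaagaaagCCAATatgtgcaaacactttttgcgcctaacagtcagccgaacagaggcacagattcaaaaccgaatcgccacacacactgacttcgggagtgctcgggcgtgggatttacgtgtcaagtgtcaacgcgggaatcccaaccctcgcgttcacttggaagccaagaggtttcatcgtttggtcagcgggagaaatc

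The remaining nucleotide excision repair genes lay under the 1.5-fold limit as deposited. Ddb1 had 297 FPKM in knockout ESC and 300.3 FPKM in Flox/Flox ESC, and its partner in ultraviolet damage sensing, Ddb2, had 11.8 FPKM in knockout ESC and 12.3 FPKM in Flox/Flox ESC. Xpa, which checks the opened lesion, had 4.98 FPKM in knockout ESC and 5.31 FPKM in Flox/Flox ESC. The helicases of the TFIIH complex diverged slightly, Ercc2 at a log2 ratio of 0.17 and Ercc3 at -0.34. Ercc1 and Ercc4 encode the dimer that cuts on the 5′ side. Ercc1 had 12.3 FPKM in knockout ESC and 9.21 FPKM in Flox/Flox ESC, a log2 ratio of 0.38 that relative to the shift was 0.59, just past the limit. Ercc4 had 2.34 FPKM in knockout ESC and 2.83 FPKM in Flox/Flox ESC. Their ratio was 5.26 in knockout ESC and 3.26 in Flox/Flox ESC. Ercc6 and Ercc8, which sense RNA polymerase stalled at damage, had log2 ratios of -0.05 for Ercc6 and -0.29 for Ercc8.

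Mgmt removes alkyl groups from guanine in a single step and is used up by the reaction (chromosome 7, 144086294 to 144319871 on mm9). It had 17.3 FPKM in knockout ESC and 11.0 FPKM in Flox/Flox ESC, 21.9 FPKM in PF 4N- and 12.4 FPKM in PF 4N+, and 14.5 FPKM in TTF 4N- and 11.5 FPKM in TTF 4N+ iPSC. In each of the 3 tables the knockout or 4N- library had the higher value. Knockout ESC and 4N- iPSC are different conditions, and the share of all genes with 1 direction in the 3 tables was not counted. The log2 ratio was 0.61 in the ESC table, 0.77 in the PF pair and 0.31 in the TTF pair. Its promoter window, on the plus strand of GRCm38.p6 at chr7:136894336-136894585, is shown because Mgmt was the gene with the highest log2 ratio of the set in both iPSC pairs, and it holds 4 GC boxes, in capitals, 2 of them adjoining.
Mgmt: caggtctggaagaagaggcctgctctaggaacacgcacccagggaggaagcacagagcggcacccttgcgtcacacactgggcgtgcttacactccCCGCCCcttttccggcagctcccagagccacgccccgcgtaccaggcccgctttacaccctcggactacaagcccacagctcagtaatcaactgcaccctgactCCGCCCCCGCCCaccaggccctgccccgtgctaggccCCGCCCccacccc

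The neighbouring pathways give the setting for the ESC differences. A list of 46 further genes of excision and mismatch repair, such as glycosylases, TFIIH subunits, replication polymerases and clamp loaders, had 45 measured, with a median log2 ratio of -0.46 in ESC, or -0.26 relative to the shift. Of these, 17 were at least 1.5-fold lower in the knockout, or 37.8%, against 15.9% of all measured genes. At least 1.5-fold higher were 3, against 17.8% of all measured genes. Counts relative to the shift were not made for these neighbouring lists. At least 2-fold, only Parp3 differed, with 2.77 FPKM in knockout ESC and 0.628 FPKM in Flox/Flox ESC. Homologous recombination and Fanconi anaemia genes had a median of -0.54, or -0.34 relative to the shift. At least 1.5-fold lower were 13 of 31, or 41.9%, against the same 15.9%, and 1 of 31 was at least 1.5-fold higher, against 17.8%. Fancl, the ubiquitin ligase of the Fanconi pathway, had 8.68 FPKM in knockout ESC and 24.6 FPKM in Flox/Flox ESC, and Nbn, of the MRN complex, had 5.05 FPKM in knockout ESC and 11.8 FPKM in Flox/Flox ESC. The 9 non-homologous end joining genes had a median of -0.48, or -0.28 relative to the shift. Of the 9, 0 were at least 1.5-fold higher, against 17.8% of all measured genes. At least 1.5-fold lower were 2 of them, or 22.2%, not far from the 15.9% of all measured genes. Of those 2, Xrcc5, which encodes the Ku80 end-binding subunit, had 37.1 FPKM in knockout ESC and 89.2 FPKM in Flox/Flox ESC.

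Proliferation markers were lower in the knockout ESC. All 14, among them Top2a, the replicative helicase subunits and Tyms, were lower, with a median log2 ratio of -0.72. They summed to 872 FPKM in knockout ESC and 1473 FPKM in Flox/Flox ESC. Relative to the shift their median was -0.51, beside -0.70 for mismatch repair and -0.37 for the later base excision steps. Glycosylases, at 0.11, and nucleotide excision repair genes, at 0.15, lay above 0 by that measure, beside 0.17 for all measured genes. The summed level of the proliferation markers was 1300.4 FPKM in PF 4N- and 1585 FPKM in PF 4N+ iPSC, and 1405 FPKM in TTF 4N- and 1355 FPKM in TTF 4N+ iPSC. Pcna belongs both to this list and to that of further excision repair genes. Their part in the repair gene differences was not tested. Markers of other cells also differed. The 12 fibroblast and feeder markers summed to 209 FPKM in knockout ESC and 98.6 FPKM in Flox/Flox ESC. Only 6 of them were measured, all higher in the knockout, with Tagln at 62.3 FPKM in knockout ESC and 7.36 FPKM in Flox/Flox ESC. Col1a1 lay below 1 FPKM in both, at 0.291 FPKM in knockout ESC and 0.0402 FPKM in Flox/Flox ESC. The 7 extraembryonic endoderm markers summed to 79.2 FPKM in knockout ESC and 7.04 FPKM in Flox/Flox ESC, with Foxa2 at 0 in Flox/Flox ESC. The part of these markers in the repair gene differences was not tested either.

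**Figure D3:**
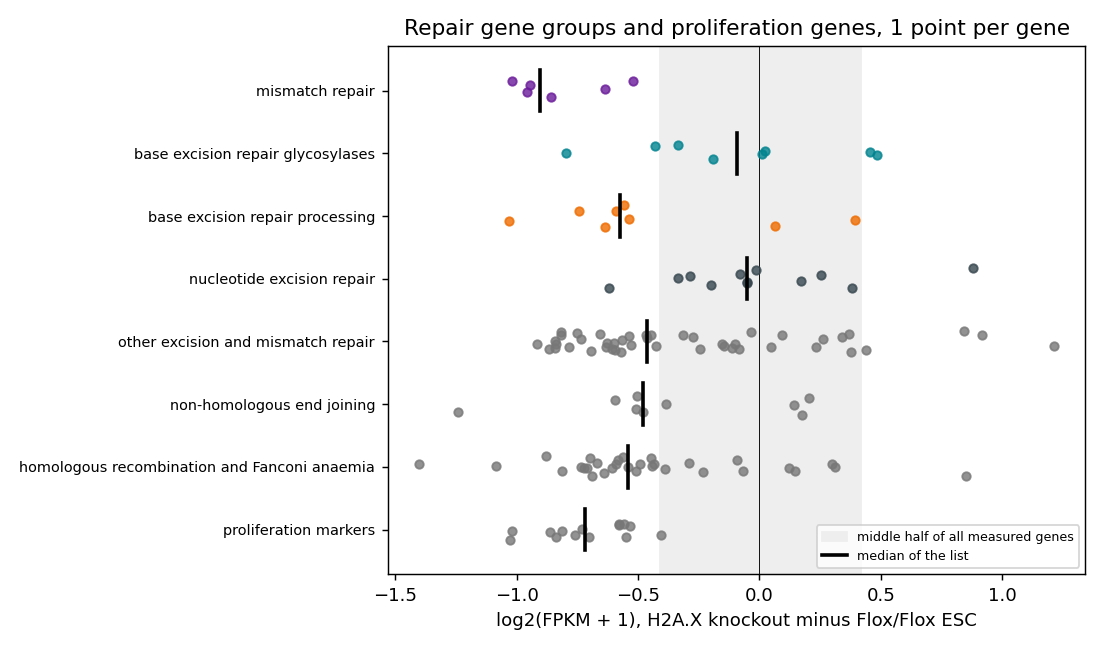
Difference in log2(FPKM + 1), H2A.X knockout minus Flox/Flox ESC, for every measured gene of each repair group and of the proliferation list, with 1 point per gene and a black bar at the list median. The medians lie at -0.90 for mismatch repair and -0.72 for proliferation genes, and the grey band shows the interquartile range of all measured genes.

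In the iPSC the question is whether the repair genes differed between 4N- and 4N+ lines from the same parental cell type. Few passed 1.5-fold. In the PF pair, 26 of 35 measured genes were lower and 9 higher in the 4N- line, while 68.1% of all 11606 measured genes were lower. The median log2 ratio was -0.15 for the repair genes and -0.13 for all measured genes. Genes with at least 5 FPKM in both PF libraries had a median of -0.17. Relative to that shift the repair genes had a median of 0.01, with 16 lower and 19 higher, and all measured genes a median of 0.04. The share of all genes lower relative to it was not counted. One gene, Mgmt, passed 1.5-fold in either direction, against a background of 6.83%. Relative to the shift Nthl1 passed it as well, with a background of 6.44%. The share of higher genes among all 2-fold differences of the PF pair was 37.2% as deposited and 51.1% relative to the shift. The 12 fibroblast and feeder markers summed to 127 FPKM in the PF 4N- line and 248 FPKM in the PF 4N+ line. Of these, 9 reached 1 FPKM in the 4N+ line and 5 in the 4N- line. The 9 measured were all lower in the 4N- line, 5 of them by at least 2-fold, with S100a4 at 0.153 FPKM in 4N- and 40.1 FPKM in 4N+. The part of these markers in the result was not tested.

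Nthl1 had 17.9 FPKM in PF 4N- and 12.9 FPKM in PF 4N+ iPSC, a log2 ratio of 0.45, or 0.62 relative to the shift. In the TTF pair it had 12.8 FPKM in 4N- and 11.5 FPKM in 4N+ iPSC. Its value was thus the higher one in the knockout or 4N- library of all 3 tables, as it was for Mgmt and, by smaller amounts in ESC and the TTF pair, Polb. More genes went the other way as deposited. Mlh3, Pms1, Pms2, Exo1, Mbd4, Mutyh, Lig1, Lig3, Parp1, Parp2 and Ercc6 were lower in the knockout or 4N- library of all 3 tables. Relative to each table's shift, only Mlh3, Pms1, Exo1, Mbd4 and Lig3 of these stayed lower in all 3. Xrcc1 and Ercc4 then joined Nthl1, Mgmt and Polb as higher in all 3, Xrcc1 by only 0.002 in the PF pair and Ercc4 by 0.006 in ESC. The share of all genes with 1 direction in the 3 tables was not counted. On the lower side of the PF pair, Lig3 had 13.0 FPKM in 4N- and 19.2 FPKM in 4N+ iPSC, a log2 ratio of -0.52. Ogg1 had 5.65 FPKM in PF 4N- and 8.01 FPKM in PF 4N+ iPSC, a log2 ratio of -0.44. Msh3 followed at -0.41, while Msh6 was on the other side of 0 at 0.27. As a group, the mismatch repair genes had a median of -0.22 in the PF pair, -0.05 relative to the shift, and -0.10 in the TTF pair. None of the 6 passed 1.5-fold in either pair.

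The TTF pair was closer still. Of 35 measured genes, 18 were lower and 17 higher in the 4N- line, with a median log2 ratio of -0.01, beside 0.00 for all measured genes, of which 49.9% were lower. One gene passed 1.5-fold, against a background of 1.74%. It was Neil2, a glycosylase for oxidised bases that works in transcribed genes (chromosome 14, 63801282 to 63812362 on mm9). It had 3.21 FPKM in TTF 4N- and 5.53 FPKM in TTF 4N+ iPSC, a log2 ratio of -0.63, and 9.54 FPKM in PF 4N- and 8.15 FPKM in PF 4N+ iPSC, a log2 ratio of 0.20. The pairs thus lay on opposite sides of 0 for Neil2. The next largest ratios of the TTF pair were 0.31 for Mgmt and -0.29 for Mlh3.

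**Figure D4:**
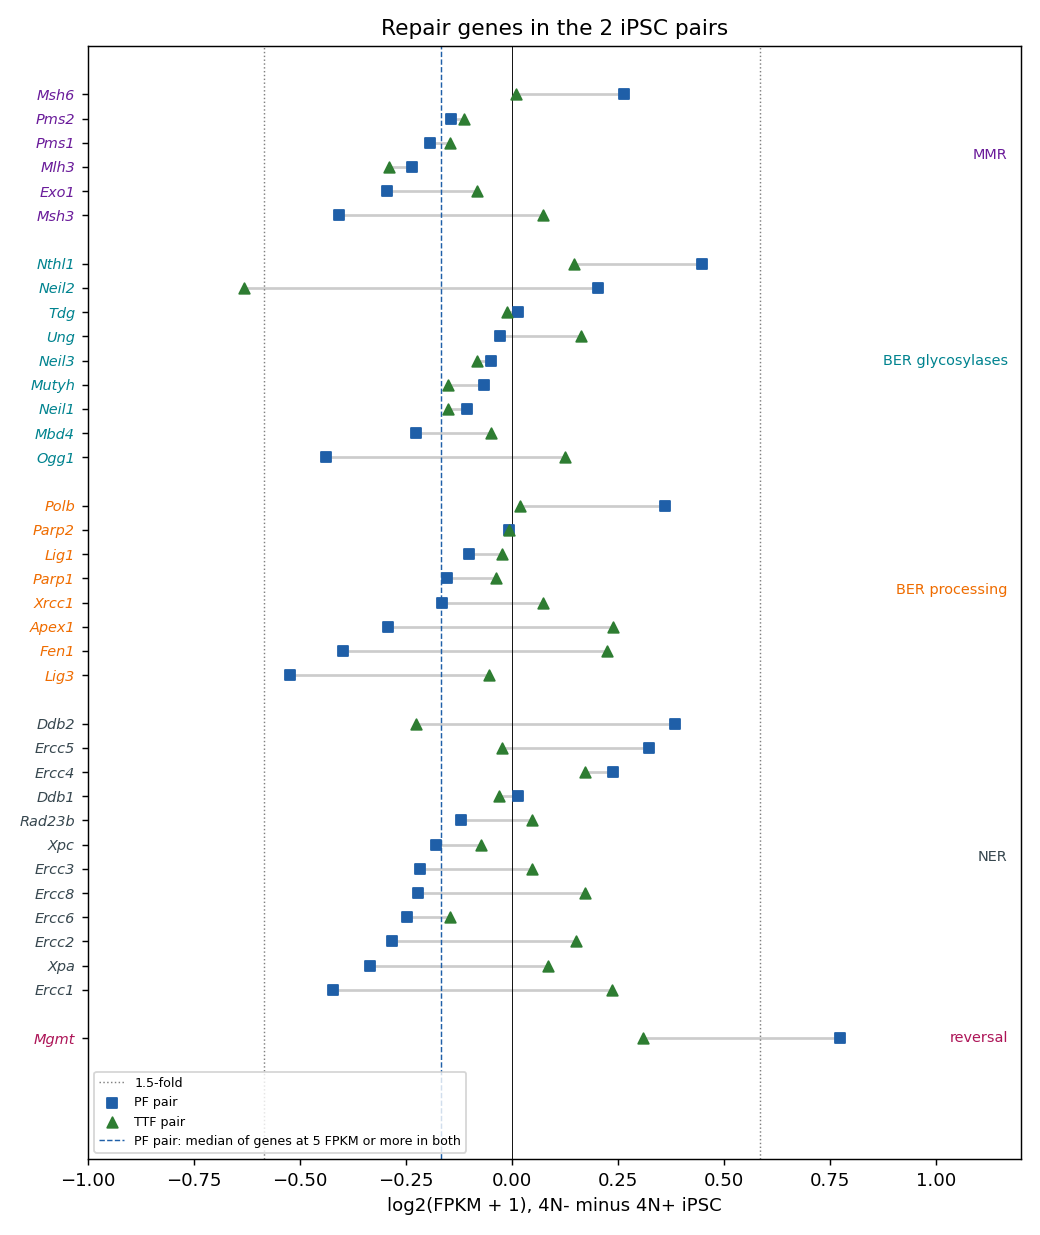
Difference in log2(FPKM + 1), 4N- minus 4N+, for each of the 36 repair genes in the PF pair (squares) and the TTF pair (triangles), with 1 library behind each side. Most points lie within the dotted 1.5-fold lines; Mgmt in the PF pair (0.77) and Neil2 in the TTF pair (-0.63) lie outside, and the dashed line is the median of PF genes with at least 5 FPKM in both libraries (-0.17).

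The pairs share no library, so their directions can be set side by side. Of 35 genes, 5 were higher in both 4N- lines, namely Msh6, Nthl1, Polb, Ercc4 and Mgmt, 14 were lower in both, and 16 lay on opposite sides of 0. The same direction was thus found for 54.3% of the repair genes and for 47.3% of the 10975 genes measured in both pairs. Relative to each pair's own shift these shares were 40.0% and 45.8%. A limma fit to log2(FPKM + 1) of the 4 iPSC libraries, with parental cells as a block, called 0 of 35 repair genes at a Benjamini-Hochberg adjusted p below 0.05, against 14 of 11985 genes, a background of 0.117%. At an unadjusted p below 0.05 the limma fit had 1 repair gene, Mgmt, and 446 genes in all. The 4N- minus 4N+ estimate for Mgmt was 0.54 on the log2 scale (SE 0.18) with a limma adjusted p of 0.822, higher in 2 of 2 pairs. Leaving out 1 library at a time was done without the block, so those estimates compare values across tables and are not the same model. The Mgmt estimate was then smallest, 0.26, without the PF 4N- library. It was 0.82 without TTF 4N-, 0.59 without PF 4N+ and 0.49 without TTF 4N+. Without the replicate block the limma fit had 0 repair genes at an unadjusted p below 0.05, and with median centring it had 2, Mgmt and Nthl1. Every other measured repair gene had a limma adjusted p of 0.999. With 1 residual degree of freedom, such a p does not show that the lines had equal levels.

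Largest among the remaining estimates of the limma fit were 0.30 for Nthl1 (SE 0.17), -0.29 for Lig3 (SE 0.18) and -0.26 for Mlh3 (SE 0.15). For Neil2 the estimate was -0.21 (SE 0.19), the pairs being opposed. In the authors' deposited table of the PF pair, 0 of the 36 genes were called, against 0.537% of the genes tested, and Mgmt had the lowest p-value of the set, 0.0473 with q = 0.889. In the authors' deposited table of the TTF pair, 0 of the 36 were called, against 0.301%, and Neil2 had the lowest p-value, 0.00302 with q = 0.343.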

How the data were processed

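The authors deposited 3 tables, each setting 2 libraries side by side over 22558 gene names. CASAVA, TopHat2 and mm9 are named, per the submitters' processing notes. Which program quantified the genes, with which annotation, version and strand setting, is not given in the sources used here. Per the file headers, each table gives both libraries' values and the authors' p-value, q-value and call per gene. The headers name no unit. The deposited values were read as FPKM because none was negative, most were fractional and a library's sum lay between 263928 and 356260. The authors' deposited log2 fold change and test statistic (other units) enter no result, and ratios were recomputed.

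Values were analysed as log2(FPKM + 1), within each table. Measured genes reached 1 FPKM in at least 1 library of the table. The shift of a table is the median ratio of genes with at least 5 FPKM in both libraries. Effective depth was the number that made the lowest values of receptor genes whole fragments: 98.2% to 100% of them came within 0.05 of a whole number. The values at 1 fragment also set that number, so the share is not an independent check. The number was the same, 44389400, in both PF libraries. For the 4 iPSC libraries, limma 3.58.1 (R 4.3.3) was used with a mean-variance trend and a block for parental cells. It leaves 1 residual degree of freedom. Genes were called at a Benjamini-Hochberg adjusted p below 0.05, and the fit was checked on simulated data. The block pairs lines by the parental-cell label and by their shared table. Nothing in the labels says that 2 lines came from the same animal, so p-values measure only the spread between these libraries.

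The named genes are the repair genes differing at least 1.5-fold, others where their role orders the account, genes of other lists differing at least 2-fold, and H2afx. The genes and all lists were chosen with earlier results of these data known. Near-identical transcripts were found with blastn 2.17.0, and motifs with Python 3.11.15. Promoters came from RefSeq (GRCm38.p6), in which 30 of the 36 genes had an entry. Neil2, Ddb2, Ercc3, Polb, Xpc and Exo1 were the others. Coordinates on mm9 are those of the files.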

Additional observations from a re-analysis of the deposited data

Results flagged for a closer look

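For 4 repair genes the 4N- against 4N+ ratio pointed one way in the PF pair and the other way in the TTF pair, with the pairs at least 1.5-fold apart. None of these differences was tested, since each pair holds 1 library per label. The share of all genes passing the same rule was not counted, so whether 4 is many cannot be told. Opposite signs alone were found for 16 of 35 repair genes and for 5746 of the 10975 genes measured in both pairs. Neil2 had a log2 ratio of 0.20 in the PF pair and -0.63 in the TTF pair, a difference of 0.83. Ddb2, the small subunit of the ultraviolet damage sensor, had 0.39 in the PF pair and -0.23 in the TTF pair, a difference of 0.61. Ercc1, of the 5′ endonuclease, had -0.42 in the PF pair and 0.24 in the TTF pair, a difference of -0.66. Fen1, the flap endonuclease, had -0.40 in the PF pair and 0.22 in the TTF pair, a difference of -0.62. Relative to each pair's own shift, Neil2 (0.37 in the PF pair and -0.64 in the TTF pair) and Ddb2 (0.55 and -0.24) stayed at least 1.5-fold apart, and Ercc1 (-0.26 and 0.23) and Fen1 (-0.23 and 0.21) did not.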

How the results depend on the processing

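With 1 library per condition, the ESC, PF and TTF ratios have no replicate error, and depth limits mainly the genes under 5 FPKM. Relative to the median shift, the ESC median of the repair genes was -0.083, beside 0.174 for all measured genes. Of the repair genes, 6 were then at least 1.5-fold higher, 6 at least 1.5-fold lower and 0 at least 2-fold lower. The PF median of the repair genes was 0.013, beside 0.036 for all measured genes, with 2 repair genes at least 1.5-fold different. A minimum of 5 FPKM gave a TTF median of 0.011. The 15 ratios of repair genes at least 1.5-fold different could not change sign under these settings, so their direction was not tested by them. A pseudocount cannot reverse a ratio, a minimum leaves it unchanged, and each table's shift was smaller than the 1.5-fold limit. The limma fit called 0 repair genes under every setting run, while its count over all genes, 14 as reported, was 0 with no expression filter (602 at an unadjusted p below 0.05), 67 with a minimum of 5 FPKM, 92 without small RNA genes and 3 without the replicate block. Leaving out 1 library at a time, without the block and with the lone line assumed to vary like the others, gave 8 to 22. These unblocked fits compare values across tables. The causes were not tested.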
